A study of Mus musculus with 19 samples.

Results

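The genes described here are 10 complement components and Fc receptors of the mouse, C1qa, C1qb, C1qc, C4b, C3ar1, C5ar1, Fcer1g, Fcgr1, Fcgr2b and Fcgr3. They were chosen by gene symbol from the annotation of the array, and each was read from the probe set that carried its symbol alone. All 10 were found, each with a single such probe set, among 19938 genes measured.

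Their RNA was measured on 19 Affymetrix arrays of the hippocampus of C57BL/6J mice aged 6 months, which fall into 4 groups by genotype and diet. APP-PS1 mice (APPSwe-PS1deltaE9) gave 5 arrays after ibuprofen chow and 5 after control chow, and their wild-type littermates gave 5 after ibuprofen chow and 4 after control chow. Ibuprofen, an inhibitor of the cyclooxygenases that make prostaglandins, was mixed into chow at 375 ppm and eaten freely from 3 to 6 months of age, and control mice ate the same chow without it.

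APP-PS1 mice carry a mutant chimeric mouse and human amyloid precursor protein and a mutant human presenilin, and they deposit amyloid plaques. The transgenes of this line are driven by prion protein promoter sequence. The diet lasted over the months in which plaques begin to form, so the design asks how genotype and long ibuprofen feeding, alone and together, bear on hippocampal RNA. Nothing in the labels gives sex or litter, or says whether an array is 1 mouse or a pool, so the p-values measure the spread between these arrays.

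Complement is a cascade of plasma and tissue proteins that tags surfaces for uptake and calls in immune cells. C1q, built from the A, B and C chains, starts the classical pathway when it binds antibody or certain surfaces, fibrillar amyloid among them, and the cascade then cleaves C4 and C3 and releases small peptides that act on receptors such as those encoded by C3ar1 and C5ar1. Fc receptors bind the constant part of antibodies, most of the activating ones signal through the common gamma chain encoded by Fcer1g, and in the brain microglia make most C1q and carry most Fc receptors.

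Promoter sequence is shown for 3 of the 10 genes as examples, C1qb and C1qc of the C1q cluster and Fcgr1, the only one found with both of the motifs that follow. The first motif is GAGGAA, the core bound by PU.1, a transcription factor of macrophages and microglia, and the second is TTCNNNGAA, the core bound by STAT factors. Each line is the 250 bases before the start that RefSeq's promoter table gives (GRCm38.p6), 5′ to 3′ on the gene's own strand, with the letters of a motif or of its reverse complement in capitals. C1qb is at chr4:136886201-136886450, C1qc at chr4:136892915-136893164 and Fcgr1 at chr3:96293970-96294219, all on the minus strand. For C1qc that start lies inside the annotated gene, so the last 22 bases of its line belong to the gene as annotated.
C1qb: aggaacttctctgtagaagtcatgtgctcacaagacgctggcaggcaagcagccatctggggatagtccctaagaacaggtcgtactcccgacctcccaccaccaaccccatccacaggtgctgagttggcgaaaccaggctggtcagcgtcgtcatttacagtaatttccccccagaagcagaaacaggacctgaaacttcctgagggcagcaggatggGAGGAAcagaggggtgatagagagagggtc
C1qc: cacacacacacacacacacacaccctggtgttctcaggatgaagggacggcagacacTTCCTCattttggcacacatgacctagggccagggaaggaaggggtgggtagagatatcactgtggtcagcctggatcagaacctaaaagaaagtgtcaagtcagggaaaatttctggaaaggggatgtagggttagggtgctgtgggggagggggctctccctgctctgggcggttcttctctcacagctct
Fcgr1: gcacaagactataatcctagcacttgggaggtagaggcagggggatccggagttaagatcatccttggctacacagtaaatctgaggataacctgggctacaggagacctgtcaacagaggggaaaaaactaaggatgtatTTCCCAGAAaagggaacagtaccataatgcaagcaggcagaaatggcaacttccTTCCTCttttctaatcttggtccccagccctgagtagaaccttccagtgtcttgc
The table held promoters for 8 of the 10 genes, C1qa and C4b being the ones without an entry.

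Searched on both strands, GAGGAA was in the promoters of 4 of those 8 genes, C1qb, C1qc, Fcgr1 and Fcgr3, and in 23.3% of 32851 promoters of the same length. In C1qb the motif lay 30 to 25 bases before the start, in Fcgr1 55 to 50 bases and in C1qc 193 to 188 bases before it, counted from the start in the promoter table. In Fcgr3, which is not shown, it lay 6 to 1 and 15 to 10 bases before the gene's 2 starts in that table. TTCNNNGAA, which is its own reverse complement, was found in 1 of the 8, Fcgr1, against 7.02% of all promoters, at 109 to 101 bases before the start. A core of the interferon-stimulated response element, GAAA and GAAA with any 2 bases between them, was in 0 of the 8 windows and in 2.98% of all. The motifs share letters, so a stretch can match more than one, and a match is a description of letters and not a binding site.

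Over the whole series, the medians of the arrays ran from 8.06 to 8.14 (log2). There were 3 arrays that stood apart, with a median correlation with the rest under 0.99: replicate 1 of APP-PS1 control chow, and replicates 1 and 5 of wild-type ibuprofen chow. App, which a transgene encodes, and Prnp, whose sequence the transgenes carry, were higher in APP-PS1 mice on both diets with no overlap between genotypes, by 0.37 and 0.67 averaged over diets (limma, adjusted p = 1e-08 and 3.37e-14). Markers of neurons averaged 12.63 to 12.66 in the 4 groups. The mean of hippocampal neuron markers was 10.68 and 10.89 in APP-PS1 ibuprofen and control arrays, and 11.02 and 10.87 in wild-type ibuprofen and control arrays; of its 8 genes, Dsp at -1.29 ± 0.19 and Prox1 at -0.46 ± 0.08, both markers of dentate granule neurons, were lower in APP-PS1 on ibuprofen chow (adjusted p = 0.00545 and 0.0128). The mean of the choroid plexus markers was 9.46 ± 1.02 and 9.21 ± 1.25 in APP-PS1 ibuprofen and control arrays, and 8.71 ± 1.09 and 8.67 ± 0.81 in wild-type ibuprofen and control arrays (SD). With the choroid plexus mean as a covariate, 0 of the 10 genes passed in any genotype comparison, as without it. Of all 19938 genes, 6 were then called averaged over diets, 62 on ibuprofen chow and 2 on control chow. The median difference of the 10 genes averaged over diets was 0.12, against 0.15 without the covariate. Fcgr1 was then at 0.08, against 0.14 without it. The part of the dentate granule neuron markers was not tested. An array signal has no zero, so no marker can be called absent.

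With all 19 arrays at equal weight, no complement or Fc receptor gene of the 10 passed the test in any comparison, but most lay higher in APP-PS1 than in wild-type hippocampus. Averaged over diets, 9 of the 10 genes were above 0 (45.1% of all genes were), the median difference was 0.15 on the log2 scale (all genes -0.01), and 0 of 10 were called at an adjusted p under 0.05 (0.0251% of all genes were called in either direction). At an unadjusted p under 0.05, 6 of 10 were higher and 0 lower, against 2.34% of all genes higher and 5.36% lower. The 6 were C4b, C3ar1, Fcgr2b, Fcer1g, C1qa and C1qb, and leaving out 1 array at a time moved the count of 6 to between 4 and 8.

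**Figure D1:**
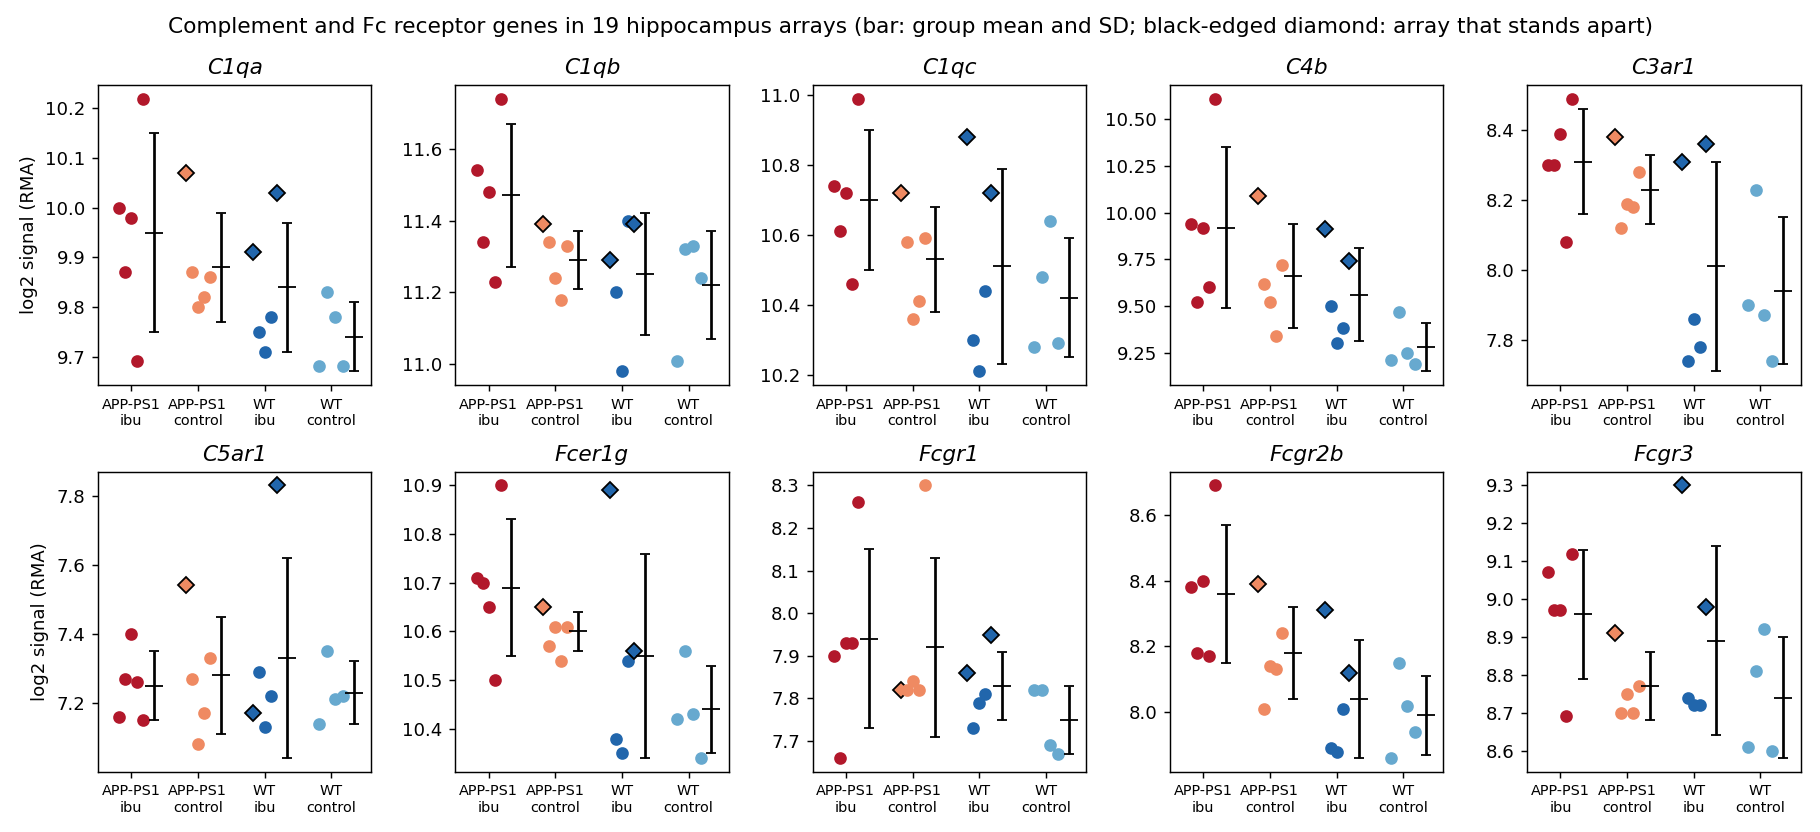
Log2 signal of each of the 10 genes (one panel per gene, each with its own scale) in the 19 arrays, by group; points are arrays, the bar beside each group is its mean with its SD, and black-edged diamonds are the 3 arrays that stand apart. The APP-PS1 ibuprofen group has the highest mean in 9 panels and the wild-type control group the lowest in 10 of 10 (3 of 10 without the 3 diamonds), and the groups of each comparison overlap.

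C1qa, C1qb and C1qc encode the A, B and C chains of C1q and stand next to each other on chromosome 4, with 0 other protein-coding genes between them. C1qb, the B chain, was at 11.54, 11.34, 11.48, 11.23 and 11.74 in APP-PS1 ibuprofen arrays, against 11.29, 11.20, 10.98, 11.40 and 11.39 in wild-type ibuprofen arrays. The control chow values were 11.39, 11.34, 11.24, 11.18 and 11.33 in APP-PS1 arrays, against 11.01, 11.32, 11.33 and 11.24 in wild-type arrays. In APP-PS1, 3 ibuprofen arrays lay above every wild-type ibuprofen array, while on control chow the genotypes overlapped more.

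C1qa, the A chain, ranged from 9.69 to 10.22 in APP-PS1 ibuprofen arrays and from 9.71 to 10.03 in wild-type ibuprofen arrays. Its control chow range was from 9.80 to 10.07 in APP-PS1 and from 9.68 to 9.83 in wild-type. C1qc, the C chain, ranged from 10.46 to 10.99 and from 10.21 to 10.88 in APP-PS1 and wild-type ibuprofen arrays, and from 10.36 to 10.72 and from 10.28 to 10.64 in APP-PS1 and wild-type control arrays. The 3 genes had much the same difference between genotypes averaged over diets, 0.13 ± 0.06 for C1qa, 0.14 ± 0.06 for C1qb and 0.15 ± 0.08 for C1qc, with adjusted p-values of 0.643, 0.619 and 0.682 (limma), and none passed.

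C4b encodes the fourth complement component, whose cleavage follows C1q binding. On ibuprofen chow its level was 9.94, 9.52, 9.92, 9.60 and 10.61 in the APP-PS1 arrays, against 9.91, 9.50, 9.30, 9.38 and 9.74 in the wild-type arrays. On control chow it was 10.09, 9.62, 9.52, 9.34 and 9.72 in the APP-PS1 arrays, against 9.21, 9.47, 9.25 and 9.19 in the wild-type arrays. APP-PS1 ibuprofen chow replicate 5 was the highest of all 19, 1 APP-PS1 control array lay below the highest wild-type control array, and the groups overlapped on both diets.

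Averaged over diets, C4b was 0.36 ± 0.12 (SE) higher on the log2 scale in APP-PS1, a ratio of 1.29 with a 95% interval of 1.08 to 1.53, at an unadjusted p of 0.0058 and an adjusted p of 0.436, so it did not pass. C4a, a near-identical paralogue of C4b, was also higher, by 0.18 ± 0.08 (adjusted p = 0.599), and since short probes can bind both transcripts their values cannot be fully told apart. C4a averaged 8.20 and 8.07 in APP-PS1 ibuprofen and control arrays, and 8.02 and 7.88 in wild-type ibuprofen and control arrays.

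C3ar1 encodes the receptor for C3a, the small peptide released from C3. On ibuprofen chow it was at 8.30, 8.30, 8.39, 8.08 and 8.49 in APP-PS1 arrays, against 8.31, 7.74, 7.86, 7.78 and 8.36 in wild-type arrays. The control chow arrays had 8.38, 8.12, 8.19, 8.18 and 8.28 in APP-PS1, against 7.90, 8.23, 7.87 and 7.74 in wild-type. The 2 high wild-type ibuprofen arrays were replicates 1 and 5, both of which stand apart, and the other 3 lay below every APP-PS1 array.

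Averaged over diets, C3ar1 was 0.30 ± 0.09 higher in APP-PS1 (ratio 1.23, 95% interval 1.09 to 1.39, unadjusted p = 0.00201, adjusted p = 0.349), with 10 of 10 APP-PS1 arrays above the wild-type mean of their diet. Without the 3 arrays that stand apart C3ar1 was 0.39 higher and passed (adjusted p = 0.0429), the 1 of 10 genes to do so, where 0.0401% of all genes were called higher. On ibuprofen chow it was then 0.52 higher (adjusted p = 0.036), again the 1 of 10, where 0.0652% of all genes were called higher.

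C5ar1 encodes the receptor for C5a, a strong attractant of myeloid cells. It ranged from 7.15 to 7.40 in APP-PS1 ibuprofen arrays and from 7.13 to 7.83 in wild-type ibuprofen arrays. Control chow values ran from 7.08 to 7.54 in APP-PS1 and from 7.14 to 7.35 in wild-type. Its highest value, 7.83, was in wild-type ibuprofen chow replicate 5, and the genotypes differed by -0.02 ± 0.08 averaged over diets (95% interval -0.18 to 0.15, adjusted p = 0.962), the only one of the 10 below 0.

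Fcgr2b encodes the inhibitory receptor for IgG. On ibuprofen chow it was at 8.38, 8.18, 8.40, 8.17 and 8.69 in APP-PS1 arrays, against 8.31, 7.89, 7.88, 8.01 and 8.12 in wild-type arrays. Control chow arrays were at 8.39, 8.01, 8.14, 8.13 and 8.24 in APP-PS1 arrays, against 7.86, 8.15, 8.02 and 7.94 in wild-type arrays. Every APP-PS1 array was above the wild-type mean of its diet, though the groups overlapped, and the difference averaged over diets was 0.26 ± 0.07 (ratio 1.19, unadjusted p = 0.00231, adjusted p = 0.354).

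Fcer1g encodes the common gamma chain through which activating Fc receptors signal. On control chow it was at 10.65, 10.57, 10.61, 10.54 and 10.61 in APP-PS1 arrays, against 10.42, 10.56, 10.43 and 10.34 in wild-type arrays. On ibuprofen chow it was at 10.71, 10.70, 10.65, 10.50 and 10.90 in APP-PS1 arrays, against 10.89, 10.38, 10.35, 10.54 and 10.56 in wild-type arrays. In APP-PS1, 4 control arrays lay above all 4 wild-type control arrays, and the difference averaged over diets was 0.15 ± 0.06 (adjusted p = 0.58).

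Fcgr1, the high-affinity receptor for IgG, was at 7.90, 7.66, 7.93, 7.93 and 8.26 in APP-PS1 ibuprofen arrays, against 7.86, 7.73, 7.79, 7.81 and 7.95 in wild-type ibuprofen arrays. After control chow it was at 7.82, 7.82, 7.84, 7.82 and 8.30 in APP-PS1 arrays, against 7.82, 7.82, 7.69 and 7.67 in wild-type arrays. Replicate 5 of each APP-PS1 group stood above all others, and the difference averaged over diets was 0.14 ± 0.07 (adjusted p = 0.667).

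Fcgr3, a low-affinity activating receptor for IgG, ranged from 8.69 to 9.12 in APP-PS1 ibuprofen arrays and from 8.72 to 9.30 in wild-type ibuprofen arrays, with wild-type ibuprofen chow replicate 1 the highest. After control chow it ranged from 8.70 to 8.91 in APP-PS1 and from 8.60 to 8.92 in wild-type. The difference averaged over diets was 0.05 ± 0.08 (adjusted p = 0.856). Fcgr2b, Fcgr3 and Fcer1g lie on chromosome 1. Fcgr2b and Fcgr3 resemble each other in sequence, so probes for one may bind the other.

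On ibuprofen chow, 9 of the 10 genes were higher in APP-PS1 (37.8% of all genes), with a median difference of 0.17 (all genes -0.05) and 0 called (0.271% of all genes called). At an unadjusted p under 0.05, 4 were higher and 0 lower, against 6.25% and 18.2% of all genes. That count was 2 to 7 when 1 array was left out: 2 when the array was number 1 or 5 of the APP-PS1 group on this diet or number 2, 3 or 4 of the wild-type group, and 7 when it was number 4 of the APP-PS1 group. On control chow, 10 of 10 were higher (57.9% of all genes), with a median of 0.15 (all genes 0.02) and 0 called (0.01%). At an unadjusted p under 0.05, 2 were higher and 0 lower, against 4.8% and 1.07% of all genes, and leaving out 1 array gave 0 to 3. It was 0 when the array was number 1 of APP-PS1 or number 1, 3 or 4 of wild-type, and 3 when it was number 2 of wild-type or, through the shared spread, number 1 of the wild-type ibuprofen group. The largest differences were C4b at 0.35 ± 0.16 and Fcgr2b at 0.32 ± 0.10 on ibuprofen chow, and C4b at 0.38 ± 0.17 and C3ar1 at 0.30 ± 0.12 on control chow. With array weights, which gave the 3 arrays that stand apart weights of 0.105 to 0.341, 7 of 10 genes passed averaged over diets and 8 of 10 on ibuprofen chow, all higher, where 0.802% and 1.64% of all genes were called higher. The 7 were C1qa, C1qb, C1qc, C4b, C3ar1, Fcer1g and Fcgr2b, at 0.20 to 0.48 averaged over diets, and Fcgr3 joined them on ibuprofen chow. The largest weight, 4.736, went to wild-type ibuprofen chow replicate 2, which was below its group mean for 10 of 10 genes. How far these calls depend on that array, or on the low weights, was not tested. In no comparison of 2 groups did any of the 10 genes separate them without overlap: 0 of 10 on ibuprofen chow and on control chow, where 0.231% and 2.94% of all genes did so as higher in APP-PS1.

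**Figure D2:**
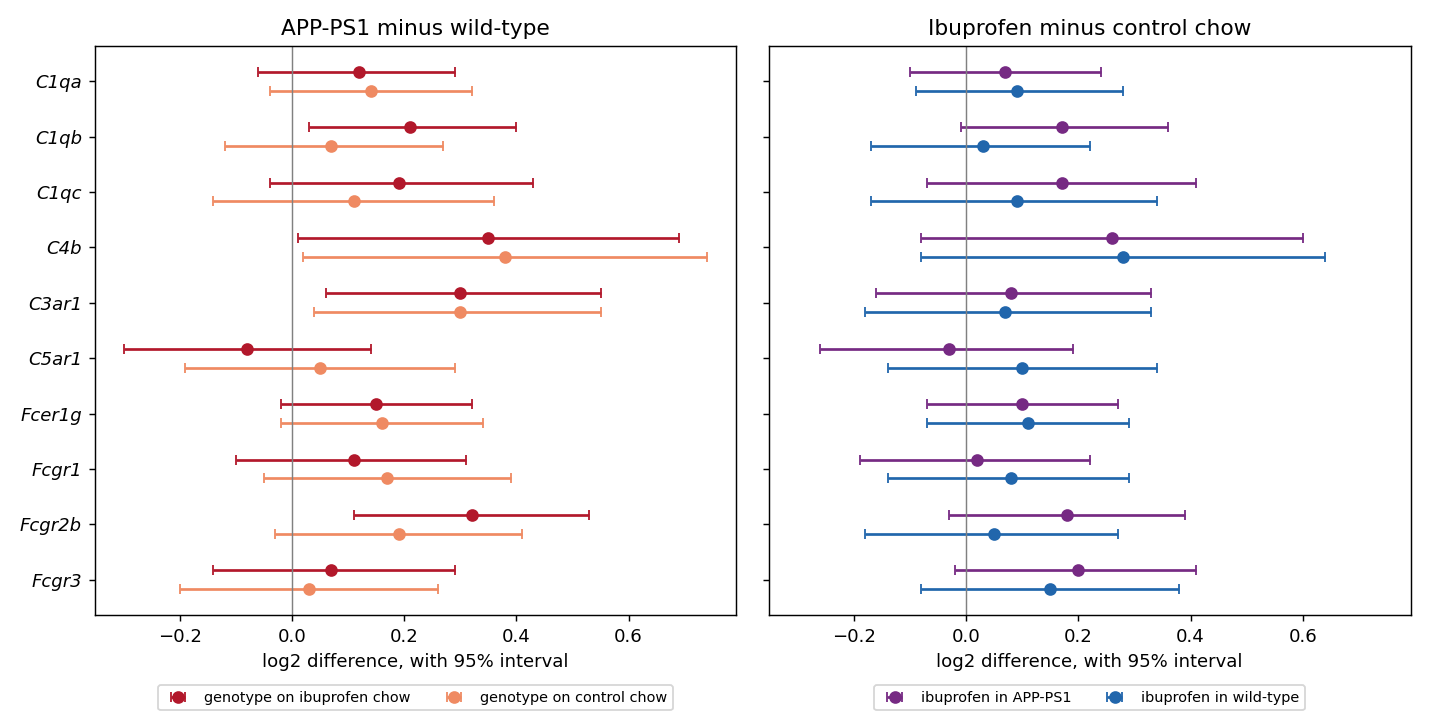
Log2 differences of the 10 genes with 95% intervals, APP-PS1 minus wild-type on each diet (left) and ibuprofen minus control chow in each genotype (right). Most points lie right of 0, C4b has the widest intervals, and C5ar1 lies at -0.08 for genotype on ibuprofen chow.

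None of the 10 genes passed for ibuprofen chow against control chow in either genotype. In APP-PS1 mice 9 of 10 were higher on ibuprofen chow (41.8% of all genes), the median difference was 0.13 (all genes -0.02) and 0 were called (0% of all genes). The largest were C4b at 0.26 ± 0.16, with a 95% interval of -0.08 to 0.60, Fcgr3 at 0.20 ± 0.10 (-0.02 to 0.41) and Fcgr2b at 0.18 ± 0.10 (-0.03 to 0.39). At an unadjusted p under 0.05, 0 were higher or lower, against 1.82% and 4.66% of all genes, and 0 separated the diets without overlap (0.507% higher). Leaving out 1 array, up to 3 genes were at an unadjusted p under 0.05 (3 when the array was number 1 on control chow, or number 2 or 4 on ibuprofen chow). Without APP-PS1 ibuprofen chow replicate 5 the median was 0.07 and C4b was at 0.09. Without the 3 arrays that stand apart the median was 0.16 and 0 were called. At an unadjusted p under 0.05 there were then 4 of the 10 genes, and 1806 of all 19938 genes in either direction. With array weights C4b was at 0.52 and Fcgr3 at 0.28 (limma, adjusted p = 0.0853 and 0.0522), and neither passed. The intervals leave room for a difference in either direction, so these values do not show that ibuprofen had no effect.

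In wild-type mice 10 of 10 were higher on ibuprofen chow (66.8% of all genes), with a median of 0.09 (all genes 0.05), 0 called (0%) and 0 at an unadjusted p under 0.05 (9.08% of all genes higher, 1.95% lower), and 0 without overlap (1.94% higher). This rested on the arrays that stand apart, since without them the median was -0.01. The interaction, the ibuprofen difference in APP-PS1 minus that in wild-type, was above 0 for 5 of 10 genes (35.6% of all genes) and had 0 called (0%) and 0 at an unadjusted p under 0.05, against 4.5% of all genes higher and 16% lower. Its intervals were wide, from -0.52 to 0.47 for C4b and from -0.26 to 0.24 for Fcer1g, and without the 3 arrays its median moved to 0.24 with 2 genes at an unadjusted p under 0.05, where 9.21% of all genes were in either direction.

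The order of the group means was the same for 8 of the 10 genes, APP-PS1 ibuprofen highest, then APP-PS1 control, wild-type ibuprofen and wild-type control. Of all 19938 genes, 2.66% had that order. Wild-type control was lowest for 10 of 10 genes and for 28.1% of all genes. Of the 30 steps between neighbouring groups in these orders, 1 was larger than the larger SD of its pair, that of C4b between wild-type ibuprofen and control. For C4b the means were 9.92 ± 0.43, 9.66 ± 0.28, 9.56 ± 0.25 and 9.28 ± 0.13 (SD, n = 5, 5, 5 and 4). The exceptions were C5ar1 and Fcgr3, for which wild-type ibuprofen lay above APP-PS1 control. These orders rested on the 3 arrays that stand apart: without them, a setting chosen for the orders after seeing the data, 2 of the 10 genes, C1qa and C4b, had that order (3.4% of all genes), and wild-type control was lowest for 3, C1qa, C4b and Fcgr1 (22% of all genes).

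Within groups 8 of the 10 genes, all but C5ar1 and Fcgr1, went up and down together from array to array. After the group mean was taken off, all 45 pairs correlated above 0 over the 19 arrays, with a median r of 0.70 and a range of 0.02 to 0.90, and 27 pairs had an adjusted p under 0.05 by r and 26 by rho (permutation within groups, Benjamini-Hochberg over the 45 pairs). Without the 3 arrays that stand apart the median was 0.69 and the range -0.07 to 0.88 over 16 arrays. Over all pairs of the 19938 genes, 58.6% correlated above 0 and 5.64% at 0.7 or more, so a correlation above 0 alone is common on these arrays. Those 3 arrays were above their group means for 9, 9 and 10 of the 10 genes. Same-numbered arrays of different groups correlated at a median of 0.129 over all genes, against -0.047 for different numbers. The permutations ignored replicate number, so the permutation p-values here and for the marker lists take no account of variation shared by it.

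**Figure D3:**
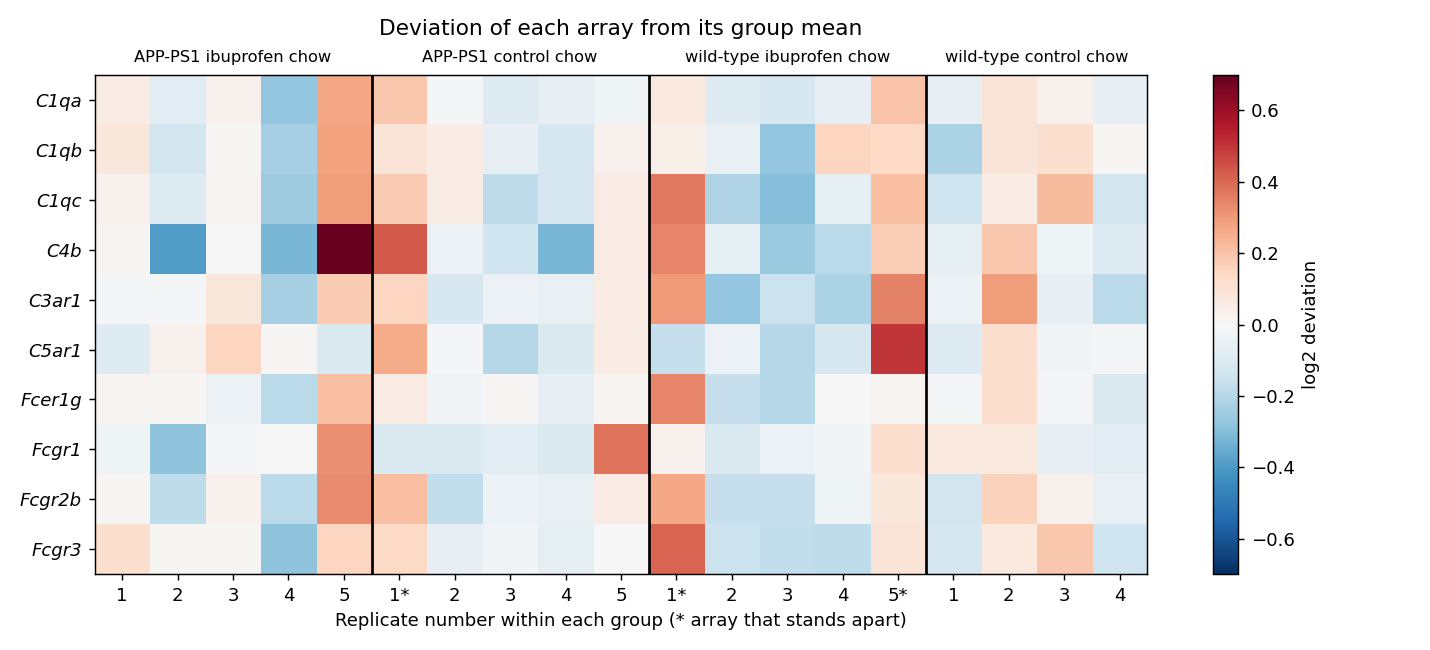
Deviation of each array from its group mean on the log2 scale, genes in rows and arrays in columns by group; red is above the group mean, blue below, and an asterisk marks an array that stands apart. APP-PS1 ibuprofen chow replicate 5 is above its group mean for 9 of 10 genes, and wild-type ibuprofen chow replicate 3 below it for 10 of 10.

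The 3 C1q genes correlated with each other at 0.77 to 0.85. By r the closest pairs were C4b with Fcgr2b (r = 0.90, rho = 0.88, permutation p = 5e-05 and 0.00012, adjusted 0.00045 and 0.0011) and C1qc with Fcgr3 (r = 0.90, rho = 0.86, permutation p = 2e-05 and 7e-05, adjusted 0.00045 and 0.001), with r of 0.83 and 0.86 without the 2 arrays farthest from the median. By rho C1qa with C1qc and C1qa with C4b were at 0.90 each. Without the 3 arrays that stand apart C1qb with C1qc was highest at 0.88, with C4b and Fcgr2b at 0.86 and C1qc and Fcgr3 at 0.81. Pairs with C5ar1 had a median r of 0.28 (0.01 without the 3 arrays) and 0 of 9 passed, and pairs with Fcgr1 a median of 0.40 and 1 of 9 passed by r. The 28 pairs without C5ar1 and Fcgr1 had a median r of 0.78, and 26 passed.

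The deviations also followed markers of microglia and of astrocytes. Against the mean of 11 microglia markers, which hold none of the 10 genes, the median r of the 10 genes was 0.76, and 7 of 10 passed by r and 5 by rho over the 130 pairs of gene and marker list (permutation, adjusted p under 0.05). Without the 3 arrays that median was 0.64. Against the plaque-associated microglia markers it was 0.75, with 8 passing by r and 6 by rho, and 0.70 without the 3 arrays. Against 10 astrocyte markers it was 0.60, with 4 passing by r and 3 by rho, and 0.62 without the 3 arrays. Against 10 neuron markers it was -0.12 and 0 passed. Against 12 reactive astrocyte markers the median was 0.60, with 2 passing by r and 1 by rho, and 0.52 without the 3 arrays. Over the 19 arrays the astrocyte r was above the microglia r for C1qa, C4b, C3ar1, C5ar1, Fcgr1 and Fcgr2b. It was below for C1qb, C1qc, Fcer1g and Fcgr3. The gap was small for C3ar1 (0.79 and 0.78), Fcgr2b (0.78 and 0.76) and C1qa (0.78 and 0.75). Without the 3 arrays C1qa was at 0.64 with astrocyte and 0.70 with microglia markers, while the others kept their direction. C5ar1 and Fcgr1 passed with neither list. The microglia mean was 9.44 and 9.40 in APP-PS1 ibuprofen and control arrays, and 9.41 and 9.30 in wild-type ibuprofen and control arrays. In a bulk sample, fewer cells of a type and less RNA per cell cannot be told apart.

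With the microglia mean as a covariate, the genotype difference averaged over diets was 0.21 for C4b, 0.19 for C3ar1, 0.17 for Fcgr2b and 0.03 for C1qc, against 0.36, 0.30, 0.26 and 0.15 without it. None of the 10 genes passed, where 121 of 19938 genes were called higher and 781 lower. On ibuprofen chow C3ar1 at 0.25 and Fcgr2b at 0.28 passed with that covariate (limma, adjusted p = 0.0351 and 0.0165), 2 of 10. That fit called 4911 of all 19938 genes on ibuprofen chow, 1109 (5.56%) higher and 3802 lower, against 54 without the covariate. In wild-type ibuprofen arrays the microglia mean was 9.60 and 9.53 in replicates 1 and 5, which stand apart, and 9.27 to 9.34 in the others. Of the 19 markers of plaque-associated microglia, 2 passed as higher in APP-PS1 averaged over diets and 0 as lower (4 and 1 of all 19938 genes). Their median difference was 0.18 (all genes -0.01). The 2 were Cst7, a protease inhibitor, at 0.77 ± 0.08 and Ccl3, a chemokine, at 0.71 ± 0.11 (limma, adjusted p = 4.2e-05 and 0.0137). The marker lists were chosen with earlier results of these data known, so these counts describe the list and do not test it.

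The genes nearest to Fcgr1 over the 19 arrays, after group means were taken off, were Rsad2, Oas1b and Irf9 at r of 0.88, 0.88 and 0.87, all of them genes of the interferon response. In APP-PS1 control chow replicate 5, Rsad2 was at 7.67, Oas1b at 6.99 and Irf9 at 10.16, against at most 6.91, 6.42 and 8.82 in the other 4 arrays of its group. Fcgr1 in that array was at 8.30, against 7.82 to 7.84 in the other 4. Fcgr1 also correlated with the mean of the choroid plexus markers (r = 0.61, rho = 0.64, permutation p = 0.005 and 0.0042, adjusted 0.031 and 0.032).

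The genes nearest to the others were as follows. Nearest to C1qb were Inpp5d, Csf1r and Igsf6 (0.77 to 0.79), and Csf1r encodes the receptor that microglia depend on for survival. Nearest to C1qc were Tyrobp, Kcnk6 and Fuom (0.89 to 0.90), and nearest to Fcgr3 were Tyrobp, Fuom and Cks2 (0.91 to 0.93), Tyrobp being an adaptor of myeloid receptors. S100a6, Ednrb and Gpnmb were nearest to C4b (0.87 to 0.90), and S100a6, Olfr1102 and Plp2 to Fcgr2b (0.85 to 0.89).

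For C1qa they were P4ha3, Entpd1 and Kif18a (0.89 to 0.91), for Fcer1g Cd300c2, Pcdhb3 and Ndufa3 (0.86 to 0.91), for C3ar1 Net1, Ebp and Itga1 (0.94 to 0.97), and for C5ar1 Eml3, Dgcr2 and Oaf (0.93 to 0.94). These were picked as the highest of all genes, so their r values are descriptions. For C5ar1 the r values fell to 0.73 to 0.77 without the 3 arrays that stand apart.

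Other complement and Fc receptor genes were read from the same fit, as a setting for the 10. Of 80 listed, 73 were measured and 0 were called in any comparison, where 0% to 0.271% of all genes were called. Averaged over diets 49 were above 0 (45.1% of all genes) with a median of 0.03 (all genes -0.01). Without adjustment 4 were higher and 4 lower at p under 0.05 (limma), against 2.34% and 5.36% of all genes. The rest of the start of the classical and lectin pathways had 12 of 13 genes above 0 (45.1% of all genes) with a median of 0.03. The diets differed in this. On ibuprofen chow 11 of 13 were above 0 (37.8% of all genes, median 0.1), and on control chow 5 of 13 (57.9% of all genes, median -0.04). C4a led that list averaged over diets and Colec11, a lectin that can start the cascade, was at 0.06. In the alternative pathway only 3 of 5 listed genes were measured, and C3 was not analysed here.

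**Figure D4:**
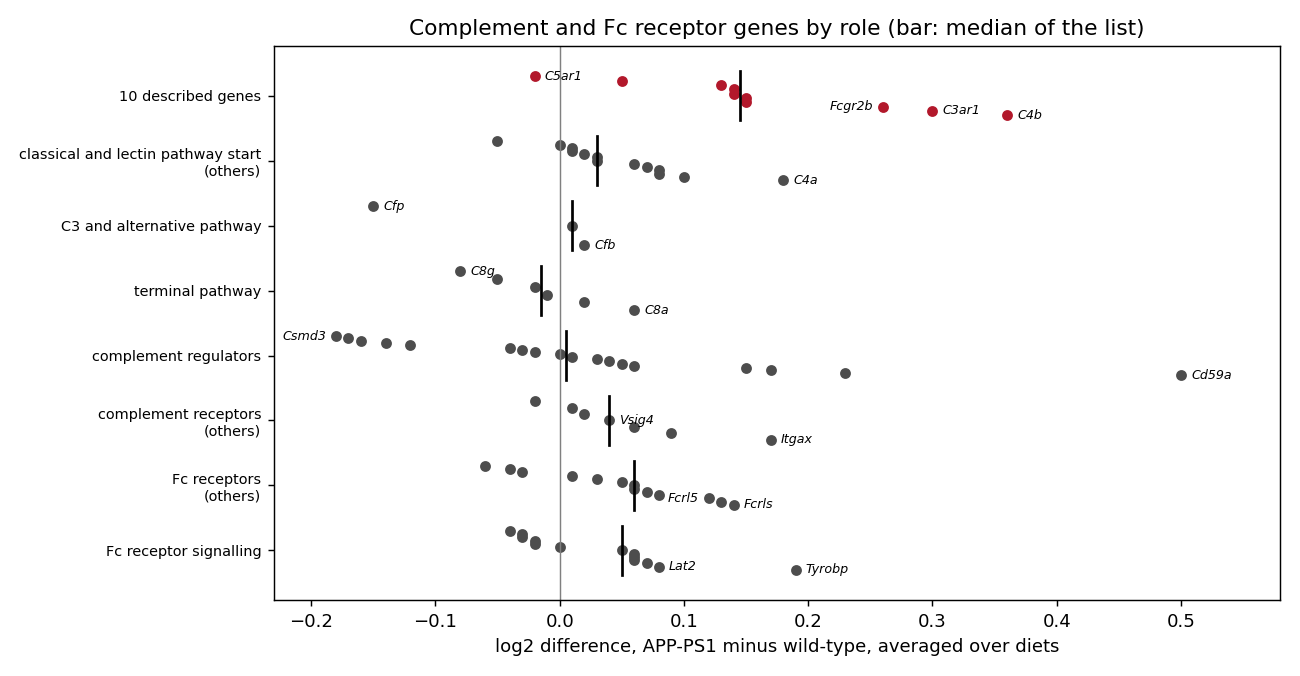
Log2 difference between APP-PS1 and wild-type, averaged over diets, of the 10 genes (red) and of the other measured complement and Fc receptor genes by role (grey); the bar is the median of each row. The 10 genes have a median of 0.15 and the other rows medians between -0.01 and 0.06.

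Cfp, properdin, the stabiliser of the alternative convertase, was at -0.15 ± 0.05 (unadjusted p = 0.00579, adjusted p = 0.436), with means of 8.54 and 8.49 in APP-PS1 ibuprofen and control arrays and 8.64 and 8.70 in wild-type ones. Cfb, which forms that convertase, was at 0.02. Of the terminal pathway, whose proteins form the membrane attack complex, 2 of 6 were above 0 (45.1% of all genes), with C8g at -0.08 and C8a at 0.06. None of the 6 passed even without adjustment, where 2.34% of all genes were higher and 5.36% lower.

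Among 18 regulators, Cd59a, which blocks the membrane attack complex, was at 0.50 ± 0.18 (adjusted p = 0.514) and Csmd3, a large membrane protein with complement-control domains, at -0.18 ± 0.07 (adjusted p = 0.545). Cd59a varied widely within groups, from 9.01 to 10.42 in the wild-type control arrays alone. Among other complement receptors Itgax, a subunit of complement receptor 4, was at 0.17 ± 0.09 and Vsig4 at 0.04, and among other Fc receptors Fcrl5 was at 0.12 and Fcrls, a gene of resident microglia, at 0.14. In Fc receptor signalling Tyrobp was at 0.19 ± 0.07 and Lat2 at 0.08, and neither passed.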

How the data were processed

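RNA was measured on 19 arrays of mouse hippocampus in 4 groups, taken from the genotype and diet labels. The deposited values are log2 signals per probe set. The submitters' processing notes name Partek 6.5 and RMA; settings and genome build are not given in the sources used here. Of 35556 probe sets, an annotation of 2016 gave 21789 a single symbol, 1621 several and 12146 none here. Each of 19938 genes was represented by its probe set with the highest mean. A limma 3.58.1 fit (R 4.3.3) with a mean per group and an intensity trend gave 6 comparisons, two-sided, adjusted by Benjamini-Hochberg over all genes, threshold 0.05. It was tested on simulated data. Errors are SE for differences and SD for means; the number of arrays limits the precision. Correlations used deviations from group means and 100000 permutations within groups, without regard to replicate number. The members, the 7 gene lists and the 13 marker lists were chosen with earlier results of these data known. Named were all 10 genes, the 2 genes of each list with the smallest p averaged over diets, and the 3 nearest genes of each; Ccl3 and Dsp were named after their values were seen. Alternatives were other normalizations, a filter on dim genes, mean probe sets, array weights, no trend or a robust empirical Bayes step, the compared groups alone, covariates, a replicate block and leave-outs. Promoters are from RefSeq. Plots used matplotlib 3.10.9 (Python 3.11.15).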

Additional observations from a re-analysis of the deposited data

Results flagged for a closer look

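In 3 of 40 gene-and-group combinations 1 array lay far from the others of its group, where chance at 1 in 20 gives about 2. C1qa was at 10.07 in APP-PS1 control chow replicate 1, an array that stands apart, with the next at 9.87. C5ar1 was at 7.83 in wild-type ibuprofen chow replicate 5, which also stands apart, with the next at 7.29. Fcgr1 was at 8.30 in APP-PS1 control chow replicate 5, which does not stand apart, with the next at 7.84.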

How the results depend on the processing

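The count of called genes was 0 in all 6 comparisons and differed under 3 of the alternatives. With array weights 7 of 10 genes passed for genotype averaged over diets and 8 on ibuprofen chow, where 0.802% and 1.64% of all genes were called higher. The arrays that stand apart had weights of 0.105 to 0.341. Wild-type ibuprofen chow replicate 2, below its group mean for 10 of 10 genes, had the largest, 4.736. Without the arrays that stand apart 1 gene, C3ar1, passed in each of these 2 comparisons (0.0401% and 0.0652% of all genes called higher). With the microglia covariate 2, C3ar1 and Fcgr2b, passed on ibuprofen chow, where 5.56% of all genes were called higher and 3802 of 19938 lower. The causes were not tested. Leaving out each array in turn, the count was 0 to 0 in every comparison, and the median difference averaged over diets was 0.11 to 0.17, and for ibuprofen in APP-PS1 mice it was 0.07 to 0.19. APP-PS1 ibuprofen chow replicate 5 moved C4b most: on ibuprofen chow it was 0.18 without it, against 0.35 with it. The direction of uncalled differences turned in 6 of 300 values averaged over diets, 2 of 310 on ibuprofen chow, 13 of 310 on control chow, 12 of 310 for ibuprofen in APP-PS1 mice, 32 of 310 for ibuprofen in wild-type mice and 48 of 300 for the interaction. Over all genes, the alternatives called 3 to 902 genes averaged over diets (5 as reported) and 5 to 4911 on ibuprofen chow (54 as reported). On control chow they called 2 to 8 (2 as reported). For ibuprofen they called up to 108 in APP-PS1 and up to 2 in wild-type, and up to 174 for the interaction, against 0 as reported. With the replicate number as a block, 0 of the 10 genes passed in every comparison and the median averaged over diets was 0.13. Of all 19938 genes, that block called 6 averaged over diets, 197 on ibuprofen chow (54 as reported) and 4 on control chow. It called 0 for ibuprofen in either genotype and 0 for the interaction. The main fit did not pair arrays by number, though same-numbered arrays of different groups were more alike. Of 27 same-numbered pairs 17 had a correlation over 0.1 (median 0.129, lowest -0.27). Of the 108 pairs with different numbers 29 did (median -0.047). Replicate 4 was below its group mean for 10 of the 10 genes in APP-PS1 control and for 9 in each other group. Replicate 5 was above it for 9 in both APP-PS1 groups and for 10 in wild-type ibuprofen. Wild-type control has no replicate 5. Variation shared by replicate number was not tested.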

Other observations

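Over the 19 arrays, with group means taken off, C3ar1 correlated with the mean of 9 endothelial markers at r = 0.81 and rho = 0.83 (permutation p = 1e-05 for both, the smallest that 100000 permutations can give, adjusted 0.0013 for both over 130 pairs), with r = 0.85 without the 2 farthest arrays and 0.80 without the 3 that stand apart. C5ar1 correlated with the mean of 8 perivascular macrophage markers at r = 0.68 and rho = 0.57 (permutation p = 0.01 and 0.014, adjusted 0.052 and 0.066), which did not pass, with r = 0.71 without the 2 farthest arrays and 0.75 without the 3 that stand apart.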
